A study of Homo sapiens with 9 samples.

Results

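Notch signalling was followed through 10 of the 60199 gene symbols of the count table: the receptors NOTCH1, NOTCH2 and NOTCH3, the ligands JAG1, JAG2 and DLL1, the target genes HES1, HEY1 and HEY2, and the coactivator MAML2. The genes were taken by symbol, and all 10 had a row. Poly-A RNA had been sequenced from 9 cultures of MCF10A, a human mammary epithelial line that is not malignant, with 3 cultures in each of 3 groups. All groups share the background of the line, which lacks CDKN2A and carries an amplified MYC. CT cells were the untreated parental line. MC26 cells were unsorted MCF10A cells transformed by long culture with BMP2 and IL6, and M1B26 cells started from a sort of MCF10A on BMPR1B, a BMP receptor, were treated with the same factors and were then expanded from 3 soft-agar clones. Both treated lines were grown with BMP2 and IL6, so the effects of the factors present in the medium and of transformation cannot be told apart. M1B26 differs from MC26 in both the sort and the soft-agar cloning, whose effects cannot be told apart in that comparison. How the libraries of a line relate to separate clones or passages is not stated in the sources used here, so the p-values measure the spread between these cultures only.

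Notch receptors are surface proteins that are activated by ligands on a neighbouring cell. Ligand binding exposes the receptor to ADAM proteases and then to gamma-secretase, and the freed intracellular part enters the nucleus, where it binds RBPJ and a Mastermind protein such as MAML2 to switch on genes of the HES and HEY families. In the mammary gland the pathway is known for its part in the balance between luminal and basal cells.

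Total counts ranged from 21425118 to 80076597 per library, so that 3 counts, taken as the limit of detection, stood for 0.0366 to 0.131 CPM (counts scaled to the same library total). All 8 basal epithelial markers were detected, with summed levels of 7428 to 9383 CPM for CT, 9253 to 11790 for MC26 and 8266 to 8779 for M1B26. KRT5 made up most of that sum, and single markers moved in both directions by edgeR. KRT14 was 20.2-fold higher in MC26 and 10.1-fold higher in M1B26 than in CT, and TP63 2.44-fold and 2.47-fold higher. ITGB4 was higher in both lines and LAMB3 in MC26, while CDH1 was 1.87-fold lower in MC26 and 1.73-fold lower in M1B26. The adhesion protein EPCAM was 4.75-fold lower in MC26 and at 1.03-fold in M1B26. Of 5 leukocyte markers 2 were detected above 3 counts (CD14 and CD68). Their list summed to 14.8 to 19.9 CPM for CT, 34.4 to 36.8 for MC26 and 56.8 to 78.9 for M1B26, while CD3E had 0 counts and PTPRC at most 2. Of 4 endothelial markers 2 exceeded 3 counts, and the list summed to 7.53 to 7.78 CPM for CT, 1.02 to 1.39 for MC26 and 2.84 to 4.91 for M1B26, with CDH5 at 1 count or fewer. All 4 fibroblast markers were detected, at 37.4 to 37.8 CPM for CT, 17.1 to 56.8 for MC26 and 28.5 to 39.7 for M1B26. Within that list LUM was higher in M1B26 (5.11 ± 0.962 CPM) than in CT (0.108 ± 0.0321) and COL1A1 was 1.98-fold higher, while DCN stood at 13.97 ± 4.15 in M1B26 and 29.03 ± 0.732 in CT without passing the test (edgeR adjusted p 0.129, SD and n = 3 throughout). The part of these shifts in the results on Notch genes was not tested. In bulk RNA, fewer cells expressing a gene and less of its RNA per cell cannot be told apart.

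Across the lines the ligands JAG1, JAG2 and DLL1 were higher in both transformed lines than in CT, and the receptors NOTCH2 and NOTCH3 were lower. DLL1 rose most, 3.74-fold in MC26 and 10.9-fold in M1B26. NOTCH3 fell most, by 4.76 on the log2 scale in MC26. The targets did not move as a group: HEY1 rose in both lines, HES1 did not pass the test in any comparison, and HEY2 was at the limit of detection.

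Of the 10 genes 9 passed the filter on low counts and were tested, HEY2 being the exception. In MC26 against CT 6 of the 9 changed, 4 higher and 2 lower, by edgeR's quasi-likelihood test at an adjusted p under 0.05. In that comparison 38.7% of the 15717 genes tested changed (18.8% higher and 19.9% lower). In M1B26 against CT 7 of 9 changed, 4 higher and 3 lower, against 48.9% of all genes (25.2% higher and 23.7% lower). Between M1B26 and MC26 5 of 9 changed, 2 higher and 3 lower in M1B26, against 39.5% of all genes (21.2% higher and 18.4% lower). Levels did not overlap between the groups for 6, 6 and 5 of the 9 genes in the same order, where this held for 50.3%, 59.0% and 53.5% of all genes. The median log2 fold change of the 9 genes was -0.01, -0.0004 and -0.01, and that of all genes 0.001, 0.002 and -0.001. The 2 comparisons with CT used the same CT libraries.

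**Figure D1:**
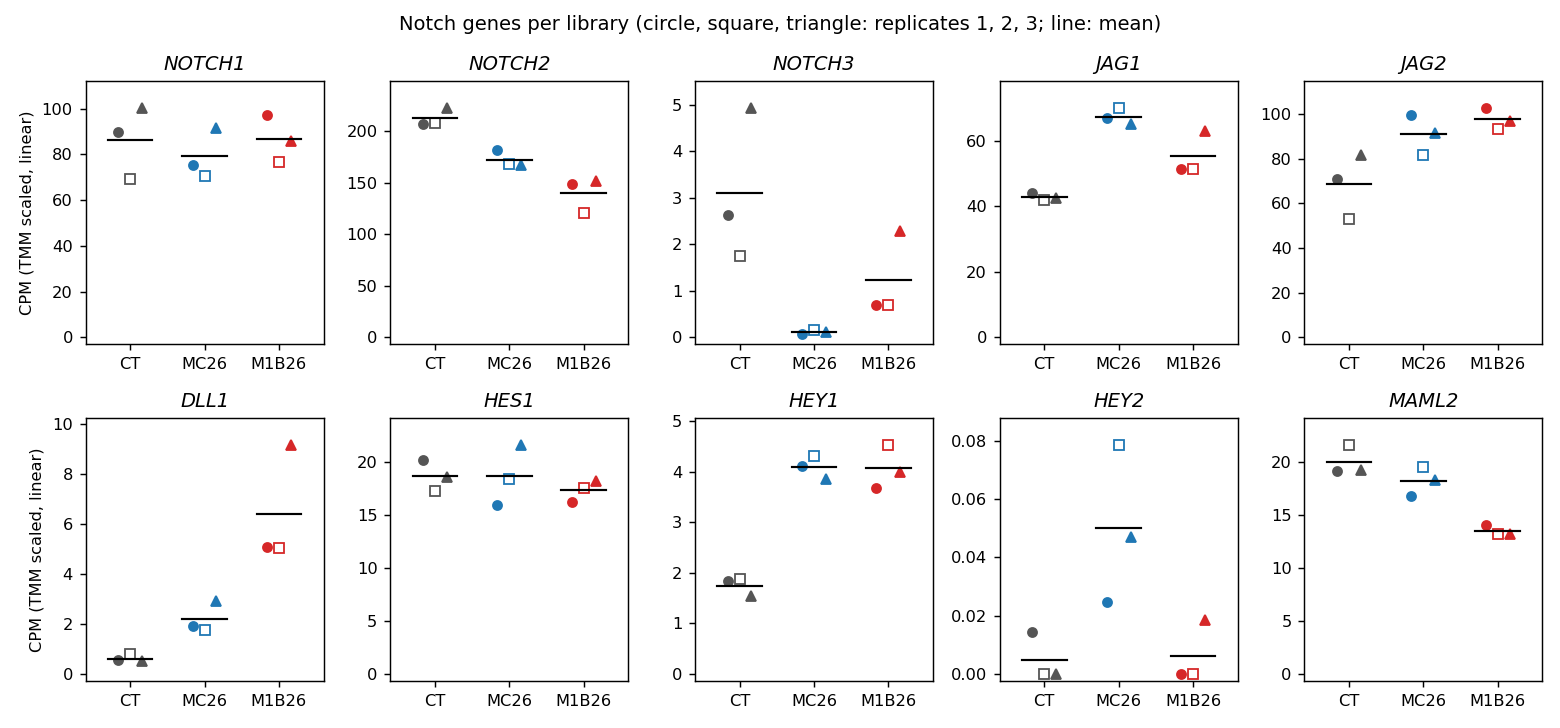
Levels of the 10 Notch genes in each library, in CPM scaled by TMM factors on a linear axis that differs between panels. Points are libraries (circle, open square and triangle for replicates 1, 2 and 3) and lines are means of 3. DLL1 rose from under 1 CPM in every CT library to at least 5.04 in every M1B26 library, while NOTCH3 was at or below 0.157 CPM in all MC26 libraries.

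The receptors were read first. NOTCH3 (chromosome 19, 15159038 to 15200995, GRCh38) encodes a receptor known mainly from vascular smooth muscle and also present in mammary epithelium. It had 2.63, 1.75 and 4.92 CPM in CT replicates 1 to 3, 0.0746, 0.157 and 0.118 in MC26, and 0.699, 0.686 and 2.29 in M1B26. The MC26 libraries held only 3, 6 and 5 counts and lay apart from both other groups, whereas replicate 3 of M1B26 lay within the range of CT. The log2 fold change was -4.76 in MC26 against CT (SE 0.65, 95% interval -6.20 to -3.32, edgeR adjusted p 2.54e-04), and every setting tried kept it past the threshold. M1B26 was 10.6-fold above MC26 (log2 fold change 3.40, SE 0.70, edgeR adjusted p 0.00317), and the difference was 2.56 without M1B26 replicate 3. In M1B26 against CT NOTCH3 was at -1.35 (SE of 0.46, edgeR adjusted p 0.0306). This call was lost without CT replicate 3 (-0.84, adjusted p 0.168), M1B26 replicate 1 (-1.07, adjusted p 0.113) or M1B26 replicate 2 (-1.07, adjusted p 0.113), and the value was -2.20 without M1B26 replicate 3. Over its 16 alternatives the adjusted p ran from 2.17e-05 to 0.168.

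The fall of NOTCH3 in MC26 was not shared by the genes around it. Within 250000 bases on either side 6 other genes were tested, a window chosen after the values of NOTCH3 were seen. Their log2 fold changes in MC26 against CT ran from 0.01 (AKAP8L) to 0.45 (AKAP8), with 3 called higher and 0 lower. Of all genes 18.8% were called higher and 19.9% lower in that comparison. The cause of the fall was not tested. The 250 bases before the start site of NOTCH3 are shown because this gene changed most. They are taken from RefSeq (GRCh38.p14, chr19:15200996-15201245, minus strand, 5′ to 3′) and have a GC content of 78.0%. Capitals would mark TGGGAA on either strand, the core bound by RBPJ, and there were none.

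NOTCH3: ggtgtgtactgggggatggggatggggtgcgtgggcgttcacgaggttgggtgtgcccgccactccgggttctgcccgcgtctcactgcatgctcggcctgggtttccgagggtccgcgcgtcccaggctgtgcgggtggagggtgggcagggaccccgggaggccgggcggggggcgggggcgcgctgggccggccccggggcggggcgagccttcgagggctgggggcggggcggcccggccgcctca

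NOTCH2 (chromosome 1, 119911553 to 120100779) was the most abundant receptor transcript. It had 207, 208 and 222 CPM in CT, 182, 169 and 167 in MC26 and 149, 120 and 151 in M1B26. The 3 groups did not overlap, with CT highest and M1B26 lowest. The log2 fold change reached -0.60 in M1B26 against CT (SE of 0.09, edgeR adjusted p 2.44e-04), -0.30 in MC26 against CT (SE of 0.09, edgeR adjusted p 0.0186) and -0.30 in M1B26 against MC26 (SE of 0.09, edgeR adjusted p 0.0198). The last 2 are near the threshold. MC26 against CT lost it without CT replicate 3 (-0.26, adjusted p 0.0634) or MC26 replicate 2 (-0.28, adjusted p 0.0701), over a range of 0.00569 to 0.0701 in 17 alternatives. M1B26 against MC26 lost it without MC26 replicate 1 (-0.26, adjusted p 0.0710) or M1B26 replicate 2 (-0.20, adjusted p 0.0663), over a range of 0.00509 to 0.0989.

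NOTCH2 shares long stretches of sequence with the human-specific copies NOTCH2NLA, NOTCH2NLB and NOTCH2NLC, so the division of reads between them is uncertain. The 3 copies together took 12.9% to 14.04% of the counts of NOTCH2 and copies for CT, 16.9% to 18.2% for MC26 and 23.3% to 27.1% for M1B26. When NOTCH2 and the copies were summed, the log2 fold change became -0.41 in M1B26 against CT (edgeR adjusted p 0.00139) and -0.23 in MC26 against CT (edgeR adjusted p 0.0333). For the sum, M1B26 against MC26 was at -0.17 and not past the threshold (edgeR adjusted p 0.0989).

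NOTCH1 (chromosome 9, 136494433 to 136546048), the receptor most studied as an oncogene of T cells and a regulator of squamous epithelia, had 89.9, 69.1 and 100.06 CPM in CT, 75.5, 70.8 and 91.6 in MC26 and 97.3, 76.6 and 86.03 in M1B26. The groups overlapped, with replicate 2 the lowest library in each. Its log2 fold change was -0.13 in MC26 against CT (95% interval -0.44 to 0.18, edgeR adjusted p 0.505) and 0.13 in M1B26 against MC26 (95% interval -0.18 to 0.44, edgeR adjusted p 0.499). In M1B26 against CT it was -0.0004 with an interval of -0.31 to 0.31 (edgeR adjusted p 0.998), so changes beyond about that size in either direction lay outside the interval. NOTCH4, the remaining human receptor, had 2 to 15 counts per library and was not tested.

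JAG1, JAG2 and DLL1 rose in both transformed lines. Of 4 other ligands and ligand-like genes 2 were tested. Neither was called against CT in MC26 or M1B26, where 38.7% and 48.9% of all genes were. DLL3 was at 0.04 in MC26 and 0.37 in M1B26 on the log2 scale (edgeR adjusted p 0.884 and 0.140). DLK2 was at -0.34 and 0.15 (edgeR adjusted p 0.118 and 0.438). DLL1 (chromosome 6, 170282206 to 170306565), a Delta-type ligand linked to mammary stem cells, had 0.543, 0.786 and 0.537 CPM in CT, 1.91, 1.75 and 2.94 in MC26 and 5.07, 5.04 and 9.16 in M1B26. The groups did not overlap and rose in the order CT, MC26, M1B26, with replicate 3 the highest library of both transformed lines. The log2 fold change was 1.90 in MC26 against CT (SE of 0.32, edgeR adjusted p 9.29e-04), 3.45 in M1B26 against CT (SE of 0.31, edgeR adjusted p 8.66e-06) and 1.54 in M1B26 against MC26 (SE of 0.27, edgeR adjusted p 0.00128). All 3 stayed past the threshold in every setting tried. The gene FAM120B lies on the opposite strand and overlaps DLL1 by 370 exonic bases, and whether the counts used strand is not known. FAM120B went the other way in M1B26 against CT (log2 fold change -0.45, SE 0.06, edgeR adjusted p 2.22e-04) and was at 0.02 in MC26 against CT (edgeR adjusted p 0.843).

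JAG1 (chromosome 20, 10637684 to 10673999), a Jagged-type ligand often raised in basal breast cancers, had 44.2, 42.1 and 42.7 CPM in CT, 67.02, 69.95 and 65.1 in MC26 and 51.3, 51.6 and 63.2 in M1B26. MC26 was highest and CT lowest, with no overlap between the groups. JAG1 rose by 0.65 in MC26 (SE of 0.08, edgeR adjusted p 1.76e-04) and by 0.36 in M1B26 (SE of 0.08, edgeR adjusted p 0.00434) on the log2 scale. M1B26 lay below MC26 by a log2 fold change of -0.28 (SE of 0.08, edgeR adjusted p 0.0203). That last call was lost without MC26 replicate 2 (adjusted p 0.0784), M1B26 replicate 1 (adjusted p 0.0842) or M1B26 replicate 2 (adjusted p 0.0864), over a range of 0.00288 to 0.0864 in 16 alternatives.

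JAG2 (chromosome 14, 105140982 to 105168824), the other Jagged ligand, had 70.9, 52.8 and 81.6 CPM in CT, 99.3, 81.7 and 91.5 in MC26 and 102.4, 93.3 and 96.8 in M1B26. All transformed libraries lay above CT, by a narrow margin between CT replicate 3 and MC26 replicate 2. JAG2 rose by 0.51 in M1B26 (SE of 0.13, edgeR adjusted p 0.00873), which every setting kept past the threshold, and by 0.40 in MC26 (SE of 0.13, edgeR adjusted p 0.0325) on the log2 scale. The rise in MC26 was lost in 6 of 16 alternatives, whose adjusted p ran from 5.84e-04 to 0.113. These were the fits without CT replicate 1 (adjusted p 0.0663), CT replicate 2 (0.26, adjusted p 0.0527), MC26 replicate 1 (0.34, adjusted p 0.113) or MC26 replicate 3 (adjusted p 0.0591), scaling by total counts (adjusted p 0.0513) and a fit of only the 6 libraries compared (adjusted p 0.0651). M1B26 and MC26 differed by 0.10 in JAG2 (95% interval -0.19 to 0.39, edgeR adjusted p 0.564).

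**Figure D2:**
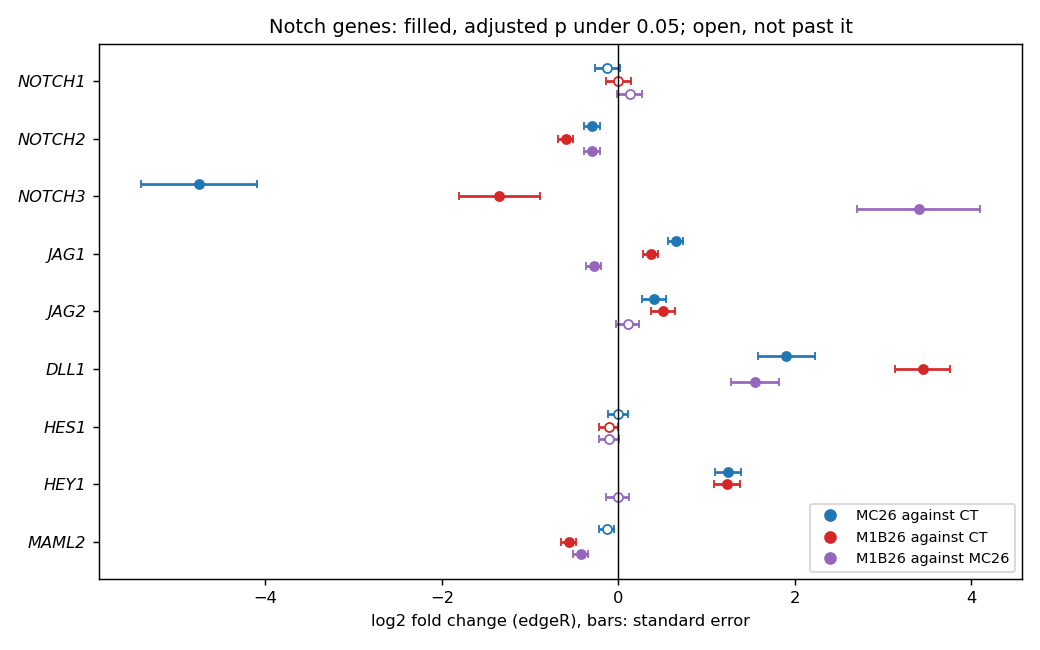
Log2 fold changes of the 9 tested Notch genes in the 3 comparisons, with bars for the standard error (blue, MC26 against CT, red, M1B26 against CT, purple, M1B26 against MC26). Filled points passed an adjusted p under 0.05 by edgeR and open points did not. NOTCH3 in MC26 against CT (-4.76) and DLL1 in M1B26 against CT (3.45) lie farthest from 0 in each direction.

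Levels of different genes were compared per kilobase of exon. Among the receptors NOTCH2 stood highest in every line, at 12.7 ± 0.502 CPM per kilobase for CT, 10.3 ± 0.481 for MC26 and 8.37 ± 1.02 for M1B26 (SD, n = 3). NOTCH1 followed at 6.89 ± 1.26, 6.33 ± 0.874 and 6.91 ± 0.827, and NOTCH3 stood at 0.329 ± 0.174, 0.0124 ± 0.00438 and 0.130 ± 0.0980 in the same order. NOTCH2 therefore made up 64.0% ± 4.06 of the summed receptor level for CT, 61.97% ± 3.75 for MC26 and 54.3% ± 1.497 for M1B26. NOTCH1 made up 34.4% ± 3.49, 37.96% ± 3.76 and 44.9% ± 2.08. All M1B26 libraries lay above all CT and MC26 libraries, but narrowly (42.5% in M1B26 replicate 3, 42.3% in MC26 replicate 3). These shares leave out the copies of NOTCH2, which took 23.3% and 17.7% of NOTCH2 and copies in those 2 libraries. Shares with the copies added were not calculated. The share of NOTCH3 was 1.61% ± 0.710 for CT, 0.0751% ± 0.0296 for MC26 and 0.832% ± 0.587 for M1B26.

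Among the ligands JAG2 stood highest in every line (10.7 ± 2.28, 14.2 ± 1.38 and 15.2 ± 0.713 CPM per kilobase in CT, MC26 and M1B26), followed by JAG1 (4.63 ± 0.119, 7.25 ± 0.261 and 5.95 ± 0.728). DLL1 remained the least abundant ligand, but its share of the summed ligand level was 1.09% ± 0.429 for CT, 2.62% ± 0.754 for MC26 and 7.27% ± 2.24 for M1B26. The summed ligand level divided by the summed receptor level was 0.806, 0.715 and 0.803 in the CT libraries. It was 1.38, 1.32 and 1.28 in MC26 and 1.37, 1.60 and 1.51 in M1B26. Receptor transcripts thus exceeded ligand transcripts per kilobase in each CT library and the reverse held in each transformed library. With coding lengths in place of exonic lengths the mean ratio was 0.752 ± 0.0491 for CT, 1.30 ± 0.0338 for MC26 and 1.47 ± 0.121 for M1B26 (SD, n = 3). The receptor sum leaves out the copies of NOTCH2, whose share of NOTCH2 and copies was highest in M1B26, and ratios with them were not calculated. These ratios are a description of RNA and were not tested.

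**Figure D3:**
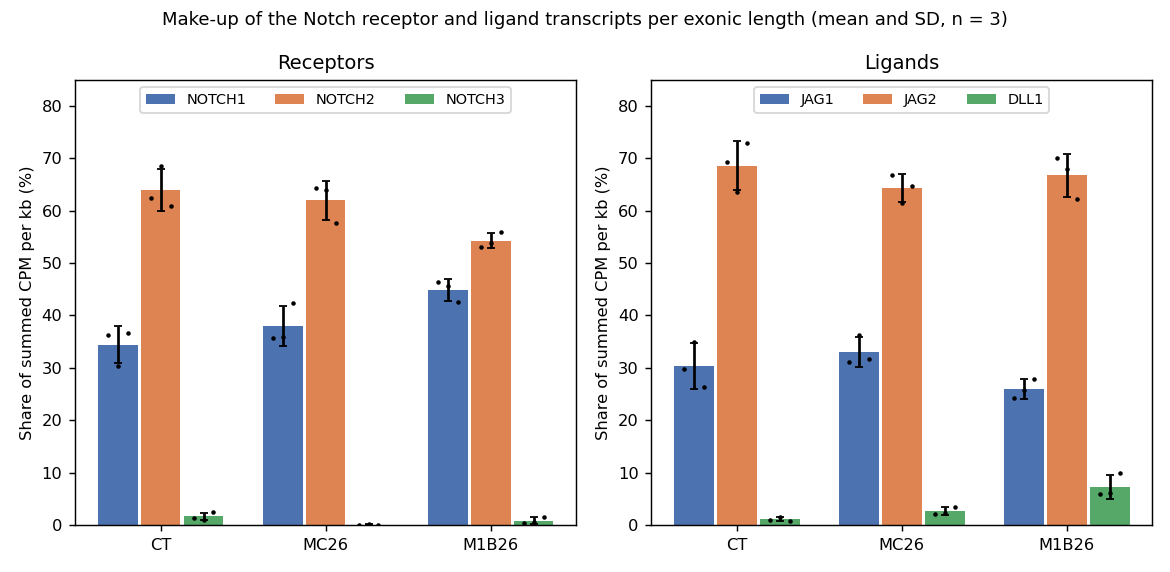
Shares of NOTCH1, NOTCH2 and NOTCH3 in the summed receptor level (left) and of JAG1, JAG2 and DLL1 in the summed ligand level (right), in percent of CPM per kilobase of exon. Bars are means with SD over 3 libraries and points are libraries. NOTCH2 made up 64.0% of the receptors in CT and 54.3% in M1B26, and DLL1 1.09% and 7.27% of the ligands.

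The targets gave no common direction. HES1 (chromosome 3, 194136148 to 194138732), the best known target and a repressor of differentiation genes, had 20.2, 17.3 and 18.6 CPM in CT, 15.96, 18.4 and 21.6 in MC26 and 16.3, 17.5 and 18.2 in M1B26. The groups overlapped, and MC26 spread most. The log2 fold change was -0.01 in MC26 against CT (95% interval -0.25 to 0.24, edgeR adjusted p 0.971) and -0.11 in M1B26 against CT (95% interval -0.35 to 0.13, edgeR adjusted p 0.428). M1B26 and MC26 differed by -0.11 (95% interval -0.35 to 0.14, edgeR adjusted p 0.475). Per kilobase HES1 stood at 9.08 ± 0.701 CPM for CT, 9.06 ± 1.37 for MC26 and 8.42 ± 0.480 for M1B26 (SD, n = 3). HEY1 stood far below it in each line, at 0.319 ± 0.0336, 0.746 ± 0.0416 and 0.740 ± 0.0779 CPM per kilobase in the same order.

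HEY1 (chromosome 8, 79762371 to 79767857), a repressor related to HES1 that is also known to respond to BMP signals, had 1.83, 1.88 and 1.54 CPM in CT, 4.10, 4.31 and 3.86 in MC26 and 3.67, 4.52 and 3.99 in M1B26. Every transformed library was above every CT library, and the transformed lines overlapped each other. HEY1 rose by 1.24 in MC26 (SE of 0.14, edgeR adjusted p 7.53e-05) and by 1.23 in M1B26 (SE of 0.14, edgeR adjusted p 5.06e-05) on the log2 scale. M1B26 and MC26 differed by -0.01 (95% interval -0.31 to 0.29, edgeR adjusted p 0.957). HEY2 (chromosome 6, 125747664 to 125761269), the third target, had 0 or 1 count in each CT and M1B26 library and 1 to 3 in MC26, so no fold change is given.

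The 250 bases before the start sites of HES1 and HEY2 are shown because HES1 is the textbook promoter bound by RBPJ and these targets differed so widely in level. They are RefSeq sequences on GRCh38.p14, plus strand, 5′ to 3′ (HES1, chr3:194135898-194136147; HEY2, chr6:125749382-125749631). For HEY2 the RefSeq start lies inside the GENCODE span of the gene given above, so its window falls within that span. Capitals mark TGGGAA on either strand.

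HES1: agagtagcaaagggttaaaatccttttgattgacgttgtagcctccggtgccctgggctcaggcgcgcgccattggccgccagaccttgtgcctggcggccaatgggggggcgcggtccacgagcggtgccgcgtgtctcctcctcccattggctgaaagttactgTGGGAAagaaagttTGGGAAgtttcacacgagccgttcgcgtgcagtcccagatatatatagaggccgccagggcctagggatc
HEY2: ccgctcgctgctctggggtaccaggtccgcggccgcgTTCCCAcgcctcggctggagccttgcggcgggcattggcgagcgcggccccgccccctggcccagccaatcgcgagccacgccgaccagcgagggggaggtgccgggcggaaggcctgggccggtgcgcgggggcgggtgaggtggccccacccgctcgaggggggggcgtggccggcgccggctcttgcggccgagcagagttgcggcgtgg

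A RefSeq promoter was found for 8 of the 10 genes, all but DLL1 and HEY1. HES1 held TGGGAA at 84 and 70 bases before its start, the first of them within the longer form GTGGGAA, and HEY2 held GTGGGAA on the opposite strand at 213 bases before its start. The other 6 genes held neither in this window. TGGGAA occurred in 20.8% and GTGGGAA in 5.43% of the 35116 promoter windows of the same length, and every GTGGGAA match is also a TGGGAA match. A match describes letters only, and these counts carry no measurement of binding.

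MAML2 (chromosome 11, 95976598 to 96343195), a Mastermind protein that joins the nuclear Notch complex, had 19.2, 21.6 and 19.2 CPM in CT, 16.8, 19.5 and 18.3 in MC26 and 14.1, 13.2 and 13.2 in M1B26. The M1B26 libraries were tight and below all others. MAML2 was lower in M1B26 than in CT by a log2 fold change of -0.56 (SE of 0.09, edgeR adjusted p 3.05e-04) and than in MC26 by -0.43 (SE of 0.09, edgeR adjusted p 0.00260). Non-coding genes share 549 exonic bases with MAML2, 306 with JAG1 and 469 with JAG2, and reads there cannot be assigned with certainty. In MC26 against CT MAML2 was at -0.13 (95% interval -0.32 to 0.05, edgeR adjusted p 0.240).

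The remaining pathway was read from a list of 58 other genes grouped by role, of which 51 were tested. In MC26 against CT 21 changed, 7 higher and 14 lower. In M1B26 against CT 23 changed, 7 higher and 16 lower, and between M1B26 and MC26 28 changed, 11 higher and 17 lower in M1B26. These are 41.2%, 45.1% and 54.9% of the genes tested, beside 38.7%, 48.9% and 39.5% of all genes. Their median log2 fold changes were -0.01, -0.08 and 0.07. Genes called with a log2 fold change of 1 or more in size are named below. Some other genes of the groups were named after their values were seen.

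The Fringe and related glycosyltransferases modify the EGF repeats of the receptors and so shape which ligand they answer to. Of 7 tested, 5 changed in MC26 against CT (2 higher, 3 lower) and 4 in M1B26 against CT (3 higher, 1 lower), which is 71.4% and 57.1% beside 38.7% and 48.9% of all genes. LFNG, the Fringe enzyme known to favour Delta-type over Jagged-type ligands, had 4.22, 4.15 and 4.56 CPM in CT, 20.9, 15.5 and 12 in MC26 and 8.39, 9.59 and 9.29 in M1B26. No groups overlapped. LFNG rose by 1.90 in MC26 (SE of 0.18, edgeR adjusted p 1.56e-05) and by 1.07 in M1B26 (SE of 0.18, edgeR adjusted p 5.23e-04) on the log2 scale. RFNG, another Fringe enzyme, was higher in M1B26 than in CT by 0.57 (SE of 0.13, edgeR adjusted p 0.00424), and it lies on chromosome 17, whose 851 tested genes had a median of 0.48 in that comparison. In MC26 RFNG was lower by a log2 fold change of -0.46 (edgeR adjusted p 0.0184), with overlapping groups, a call lost without CT replicate 1 (adjusted p 0.0821), CT replicate 3 (0.0658), MC26 replicate 1 (0.0746) or MC26 replicate 2 (0.0709). POGLUT3, an O-glucosyltransferase of EGF repeats, stood at 0.946 ± 0.138 CPM in MC26 against 28.5 ± 2.28 in CT and 27.4 ± 2.50 in M1B26 (SD, n = 3), a log2 fold change of -4.90 in MC26 against CT (edgeR adjusted p 2.93e-09).

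Ligands must be ubiquitinated in the sending cell by Mindbomb or Neuralized enzymes to be active. All 3 tested ligases were lower in MC26 than in CT, and 2 of 3 in M1B26, where 19.9% and 23.7% of all genes were lower. A list of 3 genes is too short to set it apart from the rest. NEURL1B had 17.3, 17.2 and 17.9 CPM in CT, 7.41, 6.12 and 7.60 in MC26 and 3.34, 3.72 and 5.61 in M1B26, which did not overlap. Its log2 fold change was -1.31 in MC26 (SE of 0.16, edgeR adjusted p 1.35e-04) and -2.04 in M1B26 (SE of 0.17, edgeR adjusted p 5.26e-06). MIB1 was at -0.30 in MC26 and -0.44 in M1B26, and MIB2 at -0.48 in MC26.

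Of the receptor regulators and feedback genes 4 of 9 were called in each comparison (44.4%), near the 38.7%, 48.9% and 39.5% of all genes. NRARP, a small feedback inhibitor that is itself a direct Notch target, had 5.83, 4.54 and 5.82 CPM in CT, 1.07, 1.33 and 2.16 in MC26 and 2.10, 2.58 and 2.38 in M1B26. CT lay above both transformed lines, which overlapped each other. NRARP fell by 1.83 in MC26 (SE of 0.23, edgeR adjusted p 1.27e-04) and by 1.21 in M1B26 (SE of 0.22, edgeR adjusted p 9.39e-04) on the log2 scale, while HEY1 rose in the same libraries. DTX3, a Deltex ubiquitin ligase, rose by 1.30 in M1B26 (SE of 0.17, edgeR adjusted p 1.27e-04) and was at 0.41 in MC26 (edgeR adjusted p 0.0909). DTX1, itself known as a Notch target, had 0 counts in every library.

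Among the proteases that cut the receptor 3 of 9 changed in MC26 against CT (2 higher, 1 lower) and 3 in M1B26 against CT (1 higher, 2 lower). This is 33.3%, below the 38.7% and 48.9% of all genes. APH1B, a gamma-secretase subunit, stood at 6.88 ± 0.314 CPM for CT, 3.36 ± 0.275 for MC26 and 4.68 ± 0.381 for M1B26 (SD, n = 3). APH1B changed by -1.04 on the log2 scale in MC26 (SE of 0.12, edgeR adjusted p 6.54e-05) and -0.56 in M1B26 (SE of 0.11, edgeR adjusted p 0.00213). PSENEN, another subunit, went the other way in MC26 (0.21, edgeR adjusted p 0.0213) and was at 0.06 in M1B26 (edgeR adjusted p 0.456). FURIN was higher in MC26 (0.32, edgeR adjusted p 0.0202) and lower in M1B26 (-0.27, edgeR adjusted p 0.0371, with overlapping groups). ADAM17 was higher in M1B26 (0.26, edgeR adjusted p 0.0144) and at 0.01 in MC26 (edgeR adjusted p 0.905).

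Of 8 nuclear coactivator genes 1 changed in MC26 against CT (KAT2B, an acetyltransferase, at -0.998) and 5 in M1B26 against CT (1 higher, 4 lower), which is 12.5% and 62.5% beside 38.7% and 48.9% of all genes. RBPJ, the DNA-binding partner of all Notch receptors, had 73.4, 77.5 and 69.8 CPM in CT, 69.9, 78.4 and 77.2 in MC26 and 54.5, 56.9 and 53.4 in M1B26. Every M1B26 library lay below every other library. RBPJ was at -0.42 in M1B26 against CT (SE of 0.07, edgeR adjusted p 5.32e-04) and at -0.45 against MC26 (SE of 0.07, edgeR adjusted p 5.72e-04), beside 0.03 in MC26 against CT (edgeR adjusted p 0.743). The acetyltransferases EP300 (-0.54) and CREBBP (-0.37) were also lower in M1B26 than in CT, while the acetyltransferase KAT2A was higher (0.37). Of 9 nuclear corepressor genes 4 changed in MC26 against CT (1 higher, 3 lower) and 4 in M1B26 against CT (0 higher, 4 lower). This is 44.4%, beside 38.7% and 48.9% of all genes. Among them SPEN was at -0.48 in M1B26 against CT. TLE2, a Groucho-type corepressor of low level, stood at 1.04 ± 0.307 CPM for CT, 0.238 ± 0.114 for MC26 and 0.496 ± 0.0219 for M1B26 (SD, n = 3), with log2 fold changes of -2.17 in MC26 (SE of 0.34, edgeR adjusted p 5.91e-04) and -1.12 in M1B26 (SE of 0.30, edgeR adjusted p 0.00962). The second was lost without CT replicate 3 (adjusted p 0.0527).

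Of the other HES and HEY genes 4 of 6 were tested. HES7, an oscillating target in the segmentation clock, had 7.96, 5.55 and 9.80 CPM in CT, 2.06, 1.99 and 4.31 in MC26 and 7.42, 8.62 and 9.31 in M1B26. MC26 lay below both other groups, which overlapped. Its log2 fold change was -1.496 in MC26 against CT (SE of 0.28, edgeR adjusted p 0.00187) and 1.59 in M1B26 against MC26 (SE of 0.28, edgeR adjusted p 0.00138), and this gene also lies on chromosome 17, whose median was 0.48 in the second comparison and 0.0003 in the first. HES6 was higher in M1B26 than in CT by 0.63 (edgeR adjusted p 0.0258), a call lost without CT replicate 2 (0.0579), M1B26 replicate 1 (0.0795) or M1B26 replicate 2 (0.0741). HEYL and the ligand-like gene DLK1 had 0 counts in every library, which allows up to 0.131 CPM in the shallowest.

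**Figure D4:**
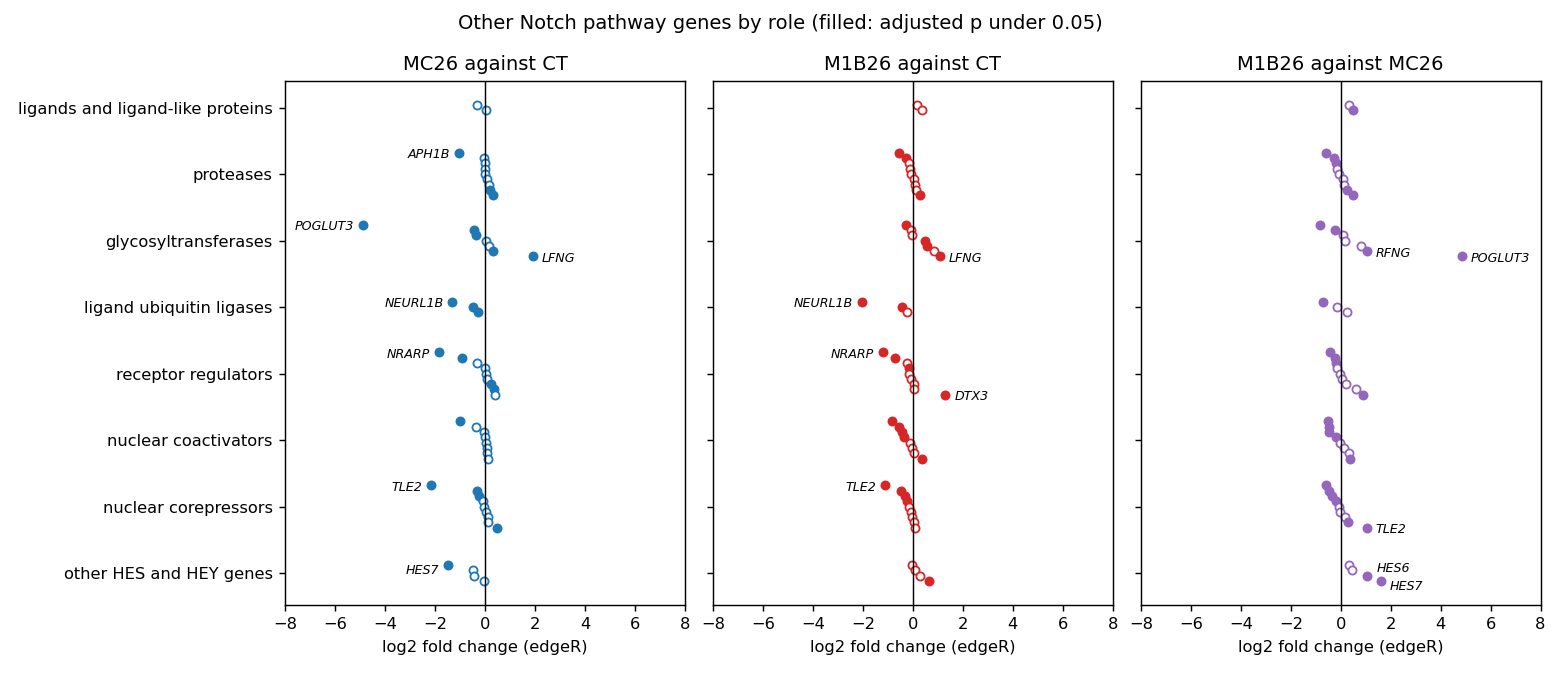
Log2 fold changes of the 51 other Notch pathway genes tested, by role, in the 3 comparisons. Filled points passed an adjusted p under 0.05 by edgeR, and names are given where the change was also at least 1 in size. All 3 ligase genes lie left of 0 in MC26 against CT, and POGLUT3 lies farthest from 0 there.

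The genes whose levels most resembled a member over the 9 libraries were sought for 1 receptor, 1 ligand and 1 target, among the 10637 genes averaging 5 CPM or more. JAG1 was most like MAST4 (Pearson r 0.987), EXT1 (0.985) and NDE1 (0.977). NOTCH1 was most like ALG12 (0.940), COG8 (0.926) and SCAMP4 (0.922), and HES1 most like MSRB1 (0.905), SRSF4 (0.902) and ADCY3 (0.897). These are the highest of many correlations over 9 libraries in 3 lines, which come from one cell line and differ in depth, and they are given as a description.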

How the data were processed

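The authors sequenced poly-A RNA in paired-end mode, aligned it to GRCh38 with STAR 2.7.3a and GENCODE 33, and deposited whole-number counts per gene symbol. Salmon 1.1.0 is also named in the sources, but the counting program, its strandedness and its handling of multi-mapped reads are not given in the sources used here. Groups came from the sample titles. The concentrations of BMP2 and IL6 differ between the sources and are not printed.

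The 10 genes and the pathway list were chosen with earlier results of these data known. Genes were named by rule: the 10 members, near copies of NOTCH2, NOTCH4, pathway genes called with a log2 fold change of 1 or more in size or with under 3 counts in every library, and the 3 genes most correlated with NOTCH1, JAG1 and HES1. Outside the rule, RBPJ, EP300, CREBBP, KAT2A, SPEN, KAT2B, MIB1, MIB2, PSENEN, FURIN and ADAM17 were named after their values were seen. So were DLL3, DLL4, DLK2 and the single cell type markers. None of these genes was followed through the alternatives. The edgeR package (4.0.16, under R 4.3.3) was used on the counts. Its filterByExpr (minimum count 10) kept 15717 of 29997 symbols with counts, TMM factors ran from 0.968 to 1.07, and glmQLFit with group as the only term was fitted to all 9 libraries. Tests (glmQLFTest) were 2-sided, with Benjamini-Hochberg adjustment over all genes tested and a threshold of 0.05. The standard error (SE) was the absolute log2 fold change over the square root of F. Positions and lengths came from GENCODE 44 (GRCh38), where 37430 symbols found a unique gene, including 507 by an older name. As alternatives served DESeq2 1.42.0, total counts or RLE in place of TMM, dropping the filter, requiring 50 counts on average, only the libraries compared, a replicate block, each library left out, and an adjusted p under 0.01. Summing NOTCH2 with its copies, the window around NOTCH3 and the ratio of ligand to receptor levels were chosen after seeing the data. Some genes of the lists are not reported here by name.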

Additional observations from a re-analysis of the deposited data

Results flagged for a closer look

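Genes were singled out where M1B26 and MC26, both set against the same CT libraries, differed from each other by the direct edgeR test at an adjusted p under 0.05. This held for 5 of the 9 tested Notch genes. NOTCH3 (log2 fold change 3.40, M1B26 against MC26) and DLL1 (1.54) were higher in M1B26, while MAML2 (-0.43), NOTCH2 (-0.30) and JAG1 (-0.28) were lower. Of these, NOTCH2 and JAG1 did not hold in every alternative, as given with their values above.

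Of the 10 named pathway genes 9 also passed this test, where 39.5% of all genes did. These 10 were chosen for a large change in any comparison, this one included, and RFNG and HES6 qualified only through it, so the count follows from the choice and their values are a description. POGLUT3 (4.85), HES7 (1.59), HES6 (1.06), TLE2 (1.05), RFNG (1.03), DTX3 (0.88) and APH1B (0.48) were higher in M1B26 than in MC26, and LFNG (-0.83) and NEURL1B (-0.73) were lower. TLE2 was past the threshold by a small margin (adjusted p 0.0417 by edgeR) and lost it in 8 of 15 alternatives, with an adjusted p of up to 0.141. HES7 and RFNG lie on chromosome 17, whose median log2 fold change was 0.48 in this comparison. Groups of 3 libraries were too small for a test of single outlying libraries.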

How the results depend on the processing

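Of 18 calls on Notch genes, 13 stayed past the threshold in every alternative, and the 5 others are given with their values above. Counts of changed Notch genes ran from 5 to 6 in MC26 against CT, 6 to 7 in M1B26 against CT and 3 to 5 in M1B26 against MC26 when 1 library was left out, with 3 in the last comparison without M1B26 replicate 2. Counts of the other pathway genes ran from 14 to 24, 19 to 25 and 18 to 29 in the same order, with 18 in the last without MC26 replicate 1 or M1B26 replicate 2. Counts over all genes moved as well, from 4524 to 6127, 6282 to 7941 and 4503 to 7166 in the same order. In the last comparison 4722 of 16014 genes were called without M1B26 replicate 2 and 4999 of 16057 without MC26 replicate 1. At an adjusted p under 0.01, M1B26 against MC26 kept 3 Notch genes and 15 other pathway genes. MC26 against CT kept 4 Notch genes and 10 other pathway genes. The share of all genes called at that threshold was not calculated.

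Values near 0 changed sign without passing the test. NOTCH1 in M1B26 against CT was 0.0087 with no filter, 0.0028 by DESeq2 and -0.14 to 0.12 with 1 library left out. HES1 in MC26 against CT was 0.0019 by DESeq2 and -0.13 to 0.10 with 1 library left out, and in M1B26 against MC26 -0.21 to 0.014. HEY1 in M1B26 against MC26 ran from -0.091 to 0.057, and POGLUT3 and HES7 in M1B26 against CT from -0.13 to 0.0048 and from -0.077 to 0.30. The cause was not tested. With coding in place of exonic lengths NOTCH1 made up 27.7%, 30.7% and 37.2% of the receptor level in CT, MC26 and M1B26, and NOTCH2 71.2%, 69.3% and 62.3%.

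Deviations of same-numbered libraries correlated at -0.114 to 0.136 (9 pairs), and those of other libraries at -0.129 to 0.119 (18 pairs). Between M1B26 and MC26 alone the same-numbered pairs stood at 0.081, 0.042 and 0.136, and the others ran from -0.114 to 0.041. These values do not settle whether the numbers mark pairs. The numbers were not taken as pairing in the main fit, and a replicate block served as an alternative. With a replicate block 6, 7 and 5 Notch genes changed in the 3 comparisons, and 21, 22 and 26 other pathway genes. Over all genes 5879, 7513 and 6009 of 15717 did so. NOTCH1 in M1B26 against CT was 0.014 under the block, and NRARP in M1B26 against MC26 passed the threshold (0.65, adjusted p 0.0477 by edgeR). NRARP passed in 4 of 16 alternatives in that comparison, the others being no filter, DESeq2 and the fit without MC26 replicate 3 (0.97), over adjusted p of 0.00305 to 0.175. NOTCH3 in MC26, DLL1 in CT and HEY2 in all lines rest on few counts, which limits the precision of their values.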
